A study of Mus musculus with 18 samples.

Results

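The cytosolic ribosomal proteins, which build the ribosomes that make nearly all of a cell's protein, were followed in inguinal white fat of male C57BL/6J mice. Members were chosen by symbol: Rpl or Rps followed by a number, with no ending other than a, x, l, y or p and a digit (pseudogene names and the Rps6 kinases left out), Rpsa, and Rplp0 to Rplp2, with a mean of at least 10 TPM (abundance scaled for transcript length and library size) over the 18 libraries. Of 21899 gene IDs, 83 had such a symbol and 80 passed, 48 of the large and 32 of the small subunit. The 3 below the minimum were Rpl39l at 4.06 TPM, Rpl3l at 2.91 TPM and Rpl10l, listed at 0 TPM, and the 3 lowest members were Rpl7l1 at 46.4, Rpl22l1 at 80.8 and Rps20 at 83.4 TPM. All 80 passed the filter on low counts in every comparison. The groups were mice injected under the skin with LLC cells, a line from the mouse Lewis lung carcinoma, and sampled at day 21 (n = 5), mice given phosphate-buffered saline (PBS) at day 21 (n = 4), LLC mice at day 7 (n = 5) and PBS mice at day 7 (n = 4). The submitters call day 7 pre-cachexia and day 21 cachexia, a loss of fat and muscle that tumours can bring. Age, and any genotype beyond the strain, is not stated in the labels. The labels number the samples of a group without saying that each came from its own mouse, so the p-values rest on differences between samples that may in part be technical.

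A ribosome joins a small subunit, which reads the message, to a large subunit, which links the amino acids. Each ribosomal protein is usually present in a single copy per ribosome, and the genes for them lie scattered over the genome. Their messages commonly start with an unbroken stretch of pyrimidines (a terminal oligopyrimidine or TOP start) that the kinase complex mTORC1, acting through Larp1 and other factors, uses to raise or lower their translation and stability together. White fat cells hold little cytoplasm around a large lipid droplet, and dividing cells are known to be richer in ribosomes.

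The members lay on 19 chromosomes, with at most 14 of them on any, chromosome 7. To show what a TOP start looks like in the genes that the results turn on, the 30 bases around the annotated start (10 before it and 20 from it on) are given from RefSeq, build GRCm38.p6, 5′ to 3′ on the gene's strand. Capitals mark a run of at least 6 bases that are each C or T and that begins between 5 bases before the start and 5 bases into the transcript. Rps6, the small subunit protein phosphorylated below mTORC1, had such a run (chr4:86857348-86857377, minus strand), as did Rps27 (chr3:90213629-90213658, minus strand), Rpl12 (chr2:32961702-32961731, plus strand) and Rplp2 (chr7:141447641-141447670, plus strand).
Rps6: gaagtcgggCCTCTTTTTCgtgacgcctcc
Rps27: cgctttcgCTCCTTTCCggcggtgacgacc
Rpl12: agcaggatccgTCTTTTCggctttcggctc
Rplp2: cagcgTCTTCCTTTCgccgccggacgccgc
No such run lay in the windows of Rps27l (chr9:66946076-66946105, plus strand) and Rpl7l1 (chr17:46782637-46782666, minus strand), the members with the smallest differences between LLC and PBS fat at day 21.
Rps27l: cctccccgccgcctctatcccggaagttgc
Rpl7l1: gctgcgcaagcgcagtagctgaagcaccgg
Of the 60 members with a RefSeq window, 21 (35%) had the run, against 3001 (11.1%) of the 27025 genes with a window. The same search for runs of A or G, which are pyrimidine runs on the other strand, found 3 members (5%), against 3558 genes (13.17%). The start of a gene in RefSeq need not be the start used in fat. A window without a marked run says only that no run of at least 6 bases begins in that span. It may hold one that begins earlier, as do the windows of Rps27l, Rpl14 and Rpl7a.

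The libraries held between 14566155 and 18969387 assigned counts. Levels below are CPM, counts scaled to a common library size by trimmed mean of M-values (TMM) over all 18 libraries, and compare libraries, not genes of different length. Per length, the members ranged up to a mean of 1548 TPM for Rps24, 1336 TPM for Rpl23a and 1258 TPM for Rplp1. All 8 adipocyte markers (Adipoq, Plin1 and others) were above 0 in every library, with summed levels of 19475 to 57035 CPM. Some libraries stood apart in markers of other cells. The 8 skeletal muscle markers summed to 1.33 to 6858 CPM, with the highest sums in PBS library 3 of day 7 (6858 CPM) and PBS library 1 of day 21 (4687 CPM), and with 2058 and 1641 CPM in LLC library 2 of day 21 and LLC library 3 of day 7. At day 21, LLC library 3 held 1372 CPM of 8 B cell markers, against 1.90 to 14.1 CPM in the other 17 libraries. LLC library 1 held 401 CPM of 8 cell cycle genes, against 20.9 to 105 CPM elsewhere. PBS libraries 1 to 3 held 274 to 436 CPM of 10 macrophage markers, against 1022 to 3637 CPM in the LLC libraries of day 21 and 2679 CPM in PBS library 4.

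At day 21, the ribosomal protein genes took a larger share of the counts in LLC fat than in PBS fat. The share was 2.56, 1.96, 4.20, 4.18 and 2.50% in LLC libraries 1 to 5, against 1.40, 1.38, 1.31 and 1.95% in PBS libraries 1 to 4. The groups did not overlap, but LLC library 2 and PBS library 4 lay next to each other, and LLC libraries 3 and 4 stood above the rest. Means were 3.08 ± 1.04% in LLC fat (SD, n = 5) and 1.51 ± 0.297% in PBS fat (SD, n = 4). At day 7 the share was 1.84 ± 0.217% in LLC fat (SD, n = 5) and 1.72 ± 0.114% in PBS fat (SD, n = 4), and these groups overlapped. In bulk tissue, more cells rich in these messages and more message per cell cannot be told apart.

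**Figure D1:**
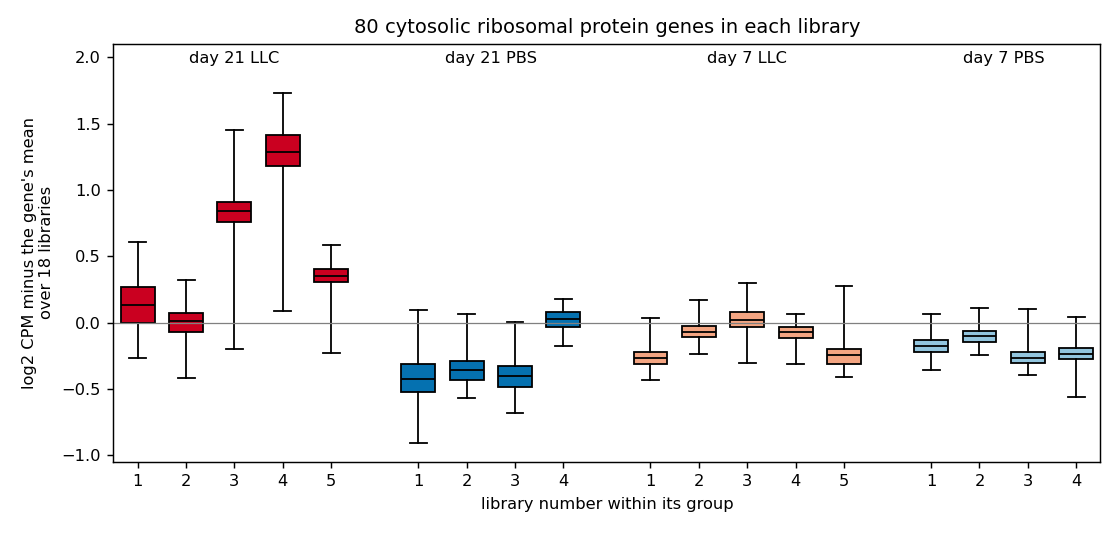
Log2 CPM of the 80 ribosomal protein genes in each of the 18 libraries, each gene centred on its own mean. Boxes span the quartiles, the line is the median and whiskers reach the extremes; LLC libraries 3 and 4 of day 21 have medians of 0.84 and 1.28, and PBS libraries 1 to 3 of day 21 have medians from -0.42 to -0.36.

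The 80 genes varied nearly as a block from library to library, as the plot of centred levels by library shows. LLC library 4 of day 21 held the highest level of 79 genes, and LLC library 3 was among the top 3 for 78 genes. Rpl7l1 was the exception to the first count, with its highest level in LLC library 1. The median centred level was 0.13, 0.01, 0.84, 1.28 and 0.35 in LLC libraries 1 to 5 of day 21, against -0.42, -0.36, -0.40 and 0.03 in PBS libraries 1 to 4. PBS library 4 thus sat with LLC libraries 1 and 2. At day 7 it ranged from -0.26 to 0.02 in LLC libraries and from -0.26 to -0.11 in PBS libraries. The large and small subunit medians of a library differed by between -0.07 and 0.04 in all day 21 libraries.

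All 80 members had a higher fitted level in LLC fat than in PBS fat at day 21, by log2 fold changes of 0.14 to 1.37 with a median of 0.88, where the median of all 13564 genes tested was 0.02. The median was 0.84 over the 48 large subunit genes and 0.90 over the 32 small subunit genes, and 70 members lay between 0.6 and 1.1. None passed edgeR's quasi-likelihood test at an adjusted p under 0.05, a level that 0.0885% of all genes tested reached. An unadjusted p under 0.05 was found for 76 members and for 3164 of all 13564 genes tested. The smallest adjusted p was 0.0803, for Rpl14 (edgeR). The number of calls depended on the tool and the fit, for the members and for all genes. DESeq2 called 63 members and 1522 of 21899 gene IDs. EdgeR with all 18 libraries in 1 fit called 76 members and 2660 of 13975 genes. Limma on log2(TPM + 1) called 0 members and 61 of 13564 genes. The authors' deposited table has 74 members at its own false discovery rate under 0.05, all higher in LLC. Of its 21899 gene IDs, 872 were higher and 287 lower at that level. Every LLC library was above every PBS library for 25 members, a pattern seen for 5.23% of all genes tested. Without PBS library 4, that count was 74, where 15.0% of all genes tested had the pattern. EdgeR then called 12 members and 1277 of 13726 genes, and the members' median was 1.00. The 6 members outside the count of 74 were Rpl22l1, Rpl41, Rpl7l1, Rplp2, Rps19 and Rps27l. Without LLC libraries 3 and 4 together, which was tried after their levels were seen, the median was 0.44 and 79 members were higher. An unadjusted p under 0.05 was then found for 57 members and for 2286 of 13621 genes.

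**Figure D2:**
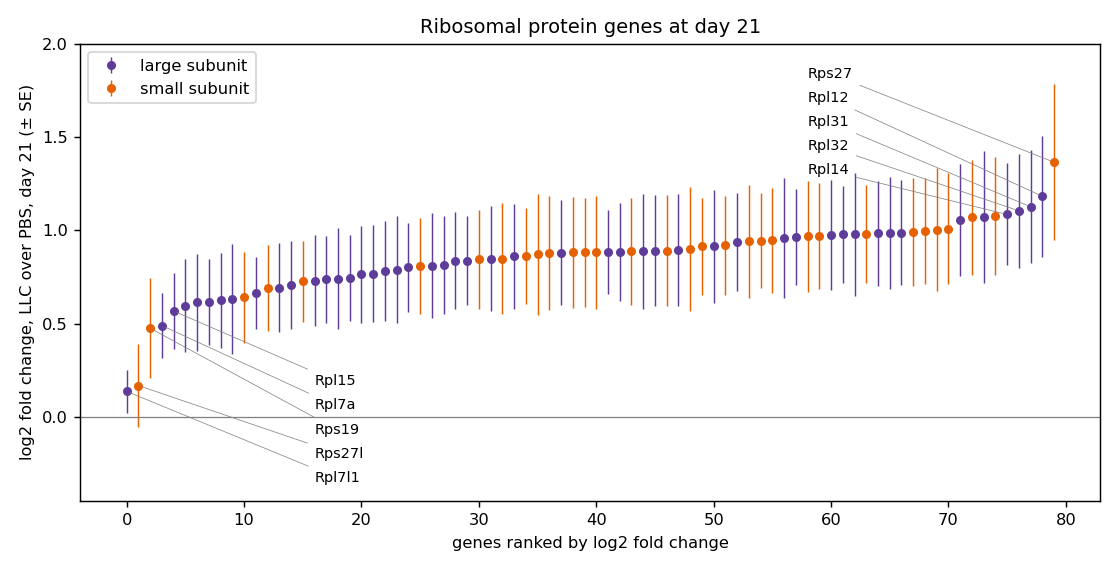
The edgeR log2 fold change of each of the 80 genes, LLC over PBS at day 21, with its standard error, ranked from lowest to highest and coloured by subunit. The 5 lowest and 5 highest are named; all points lie above 0, between 0.14 for Rpl7l1 and 1.37 for Rps27.

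The stalk of the large subunit, which draws in the elongation factors, is made of Rplp0, Rplp1 and Rplp2. Rplp0, its anchor, had 738, 631, 927, 1255 and 695 CPM in LLC libraries 1 to 5 of day 21, against 445, 486, 463 and 655 CPM in PBS libraries 1 to 4. PBS library 4 overlapped the lowest LLC library. The log2 fold change of Rplp0 was 0.71 ± 0.233 (SE; adjusted p = 0.127, edgeR). Rplp1 had 343, 320, 556, 952 and 387 CPM in LLC libraries 1 to 5, against 241, 258, 206 and 317 CPM in PBS libraries 1 to 4. Its groups did not overlap, with LLC library 2 just above PBS library 4, and its log2 fold change was 0.98 ± 0.331 (SE; adjusted p = 0.133, edgeR). Rplp2 had 216, 265, 448, 526 and 373 CPM in LLC libraries 1 to 5, against 251, 252, 216 and 235 CPM in PBS libraries 1 to 4. Here LLC library 1 sat among the PBS libraries, and the log2 fold change was 0.60 ± 0.250 (SE; adjusted p = 0.194, edgeR). Rpl12, which binds at the base of the stalk, had 311, 211, 457, 573 and 257 CPM in LLC libraries 1 to 5, against 109, 151, 146 and 221 CPM in PBS libraries 1 to 4. Only PBS library 4 reached into the LLC range, and the log2 fold change was 1.18 ± 0.324 (SE; adjusted p = 0.0971, edgeR).

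On the small subunit, Rpsa, also known as the laminin receptor precursor, had 826, 786, 1094, 1681 and 767 CPM in LLC libraries 1 to 5 of day 21, against 507, 517, 484 and 602 CPM in PBS libraries 1 to 4. The groups did not overlap, and the log2 fold change was 0.95 ± 0.255 (SE; adjusted p = 0.0934, edgeR). Rps6 had 472, 464, 811, 1153 and 598 CPM in LLC libraries 1 to 5, against 307, 303, 334 and 440 CPM in PBS libraries 1 to 4. All LLC libraries were above all PBS libraries, LLC library 2 narrowly so, with a log2 fold change of 0.99 ± 0.291 (SE; adjusted p = 0.106, edgeR). Rps19, whose loss causes Diamond-Blackfan anaemia in humans, had 141, 148, 280, 355 and 199 CPM in LLC libraries 1 to 5, against 154, 165, 159 and 158 CPM in PBS libraries 1 to 4. LLC libraries 1 and 2 were below all PBS libraries, and the log2 fold change was 0.48 ± 0.267 (SE; adjusted p = 0.302, edgeR).

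Of the other large subunit genes with the highest differences, Rpl14 had 238, 221, 374, 540 and 272 CPM in LLC libraries 1 to 5 of day 21, against 136, 145, 140 and 190 CPM in PBS libraries 1 to 4. The groups did not overlap, and the log2 fold change was 1.09 ± 0.273 (SE). Rpl31, which lies near the mouth of the exit tunnel, and Rpl32 had log2 fold changes of 1.13 ± 0.303 and 1.11 ± 0.304 (SE; adjusted p = 0.093 and 0.098, edgeR). At the low end, Rpl7a and Rpl15 had log2 fold changes of 0.49 ± 0.174 and 0.57 ± 0.205 (SE; adjusted p = 0.143 and 0.148, edgeR).

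Rps27l, Rpl7l1 and Rpl22l1 are minor relatives of other members. They were compared with their partners because some paralogs can take their partner's place in the ribosome. Whether these genes do so here was not tested. The ratio tests were added after their values were seen. Rps27 lies at chr3:90212522-90213651 and its paralog Rps27l, a p53 target in human cells, at chr9:66946086-66949516 (GRCm38). Rps27 had 98.2, 98.6, 305, 361 and 167 CPM in LLC libraries 1 to 5 of day 21, against 61.6, 75.8, 72.4 and 105 CPM in PBS libraries 1 to 4. Rps27 has a near-identical copy elsewhere in the genome, Rps27rt, so how RSEM split their reads is uncertain. PBS library 4 was above LLC libraries 1 and 2, and the log2 fold change was 1.37 ± 0.419 (SE; adjusted p = 0.112, edgeR). Rps27l had 33.6, 27.1, 27.5, 58.3 and 31.7 CPM in LLC libraries 1 to 5, against 33.9, 30.6, 28.0 and 32.4 CPM in PBS libraries 1 to 4. Its groups overlapped except for LLC library 4, and its log2 fold change of 0.17 ± 0.223 (SE; adjusted p = 0.662, edgeR) was -0.08 without that library. The log2 ratio of Rps27 to Rps27l was 2.38 ± 0.743 in LLC fat (SD, n = 5) and 1.31 ± 0.340 in PBS fat (SD, n = 4), a difference of 1.07 (two-sided exact permutation p = 0.0317; 0.190 after Benjamini-Hochberg adjustment over 12 such tests).

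Rpl7 and its relative Rpl7l1 (chr17:46773907-46782672, GRCm38) showed a difference of the same sign. Rpl7 had 507, 434, 678, 912 and 521 CPM in LLC libraries 1 to 5 of day 21, against 316, 332, 341 and 447 CPM in PBS libraries 1 to 4. Rpl7l1 had 71.7, 57.4, 57.2, 61.6 and 49.3 CPM in LLC libraries 1 to 5, against 52.5, 49.7, 53.6 and 57.4 CPM in PBS libraries 1 to 4. For Rpl7 only PBS library 4 reached the LLC range, whereas for Rpl7l1 the groups overlapped widely. Their log2 fold changes were 0.75 ± 0.233 and 0.14 ± 0.117 (SE; adjusted p = 0.116 and 0.489, edgeR). The log2 ratio of Rpl7 to Rpl7l1 was 3.32 ± 0.447 in LLC fat (SD, n = 5) and 2.74 ± 0.159 in PBS fat (SD, n = 4; two-sided exact permutation p = 0.0476, 0.190 after adjustment over the 12). Between day 21 and day 7 in LLC fat it was 3.32 ± 0.447 and 2.65 ± 0.167 (SD, n = 5 each), with no overlap and the smallest p that the exact test allows, 0.00794, or 0.0952 after adjustment.

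Rpl22 and Rpl22l1, a pair in which mouse Rpl22 is known to hold down its paralog, had a smaller difference in their ratio. Rpl22 had 113, 99.3, 177, 240 and 149.5 CPM in LLC libraries 1 to 5 of day 21, against 81.4, 94.4, 90.4 and 104 CPM in PBS libraries 1 to 4. Rpl22l1 had 20.8, 16.6, 35.3, 50.2 and 29.5 CPM in LLC libraries 1 to 5, against 18.4, 19.8, 16.2 and 23.0 CPM in PBS libraries 1 to 4. Both were highest in LLC libraries 3 and 4, and their log2 fold changes were 0.73 ± 0.244 and 0.63 ± 0.296 (SE; adjusted p = 0.13 and 0.23, edgeR). The log2 ratio was 2.39 ± 0.126 in LLC fat (SD, n = 5) and 2.26 ± 0.153 in PBS fat (SD, n = 4; two-sided exact permutation p = 0.206, 0.354 after adjustment).

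**Figure D3:**
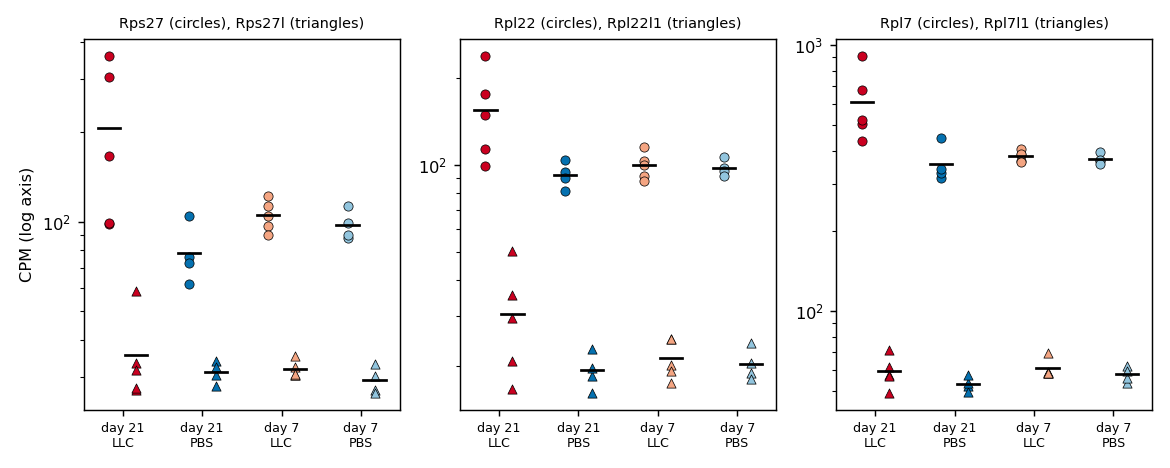
CPM, on a log axis, of 3 genes (circles) and their paralogs (triangles) in each library of the 4 groups, with group means as bars. In LLC fat of day 21, Rps27 reaches 361 CPM and Rpl7 912 CPM, while Rpl7l1 stays between 49.3 and 71.7 CPM and Rps27l, except for 1 library at 58.3 CPM, between 27.1 and 33.6 CPM.

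At day 7, the members' levels in LLC and PBS fat lay close together. The log2 fold changes ran from -0.06 to 0.22 with a median of 0.08, against 0.00 over all 13445 genes tested, and 75 members were above 0 and 5 below. Without LLC library 3 and PBS library 3, which held the most muscle markers at day 7, 51 were above 0 and 29 below, with a median of 0.02. Among the highest were Rplp2 (0.22), Rps2 (0.15), Rpl31 (0.14) and Rps28 (0.13), and the lowest were Rpl10 (-0.06), Rpl29, Rpl21, Rps4x and Rpl13 (-0.02 to -0.01), the last 3 of which were above 0 with library totals only. None passed (edgeR), where 0.00744% of all genes did. No member had an unadjusted p under 0.05 (edgeR), where 1144 of the 13445 genes tested did. DESeq2 and the authors' deposited table called no member. Rpl10 shares nearly all of its sequence with the copy Rpl10-ps3, so how RSEM split their reads is uncertain.

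The difference between the days was tested directly, as the LLC effect at day 21 minus that at day 7. It was above 0 for all 80 members, with a median of 0.82 against 0.05 over all 13975 genes tested. The unadjusted p was under 0.05 for 73 members and for 2540 of all 13975 genes tested. None passed (edgeR), where 0.415% of all genes did, whereas DESeq2 called 15 members and 726 of 21899 gene IDs. The smallest adjusted p was 0.0825, for Rpl3, at 0.89 ± 0.232 (SE; edgeR). The largest values were 1.28 ± 0.446 for Rps27 and 1.12 ± 0.340 for Rpl12 (SE), followed by Rpl14 (1.09), Rpl10 (1.07) and Rpl32 (1.06). The smallest were Rps27l (0.07), Rpl7l1 (0.08), Rps19 (0.39), Rplp2 (0.40) and Rpl7a (0.44). Without LLC libraries 3 and 4 of day 21, Rps27l and Rps19 were below 0, at -0.15 and -0.07. Without PBS library 4 of day 21, edgeR called 29 members and 1222 of 14146 genes. Without LLC library 2 of day 21, it called 18 members and 369 of 13924 genes.

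In LLC fat, 21 of the 80 members rose at day 21 relative to day 7 (edgeR, adjusted p under 0.05), 14 of the large and 7 of the small subunit, and none fell, where 1.77% of all genes tested passed. This fit gave each gene 1 spread shared by the 4 groups, although the groups differed in spread. The SD of the members' median centred level was 0.53 in LLC and 0.21 in PBS libraries at day 21. At day 7 it was 0.12 in LLC and 0.07 in PBS libraries. The calls thus rest on an error drawn in part from the less variable groups. The median over the members was 0.73, against 0.05 over all genes, and 65 lay between 0.6 and 0.9. Rpsa rose by 0.93 ± 0.176 (SE; adjusted p = 0.0209, edgeR), with 826, 786, 1094, 1681 and 767 CPM in LLC libraries 1 to 5 at day 21, against 479, 534, 592, 551 and 543 CPM at day 7. The days did not overlap. Rpl10, which joins the large subunit late in its assembly, rose by 1.00 ± 0.205 (SE; adjusted p = 0.029, edgeR), with 187, 161, 263, 404 and 198 CPM in LLC libraries 1 to 5 at day 21, against 107, 138, 118, 125 and 117 CPM at day 7. Rps2, at the entry of the message channel, rose by 0.78 ± 0.150 (SE; adjusted p = 0.0222, edgeR), and Rpl12, Rps18 and Rplp0 rose by 1.00, 0.94 and 0.69. Rps27 and Rpl36 had values as high, 0.97 ± 0.298 and 0.95 ± 0.253 (SE), without passing (edgeR adjusted p = 0.0999 and 0.0648). The lowest were Rpl7l1 (-0.04, but 0.01 with library totals only), Rps27l (0.16), Rpl15 (0.47), Rpl7a (0.48) and Rpl22l1 (0.51).

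For 29 members every day 21 LLC library was above every day 7 LLC library, a pattern held by 1.69% of all genes tested. The number of members called depended on single libraries, as did that of all genes called, which was 248 with every library. Of the day 21 libraries, members called were 74, 74, 3 and 5 without LLC library 1, 2, 3 or 4. They were 10, 6 and 33 without PBS library 1, 2 or 4. Genes called were 1036, 602, 94 and 74 without LLC library 1, 2, 3 or 4, and 152, 110 and 340 without PBS library 1, 2 or 4. Of the day 7 libraries, members called were 0, 0, 1, 3 and 5 without LLC library 1, 2, 3, 4 or 5, and 5 or 6 without any single PBS library. Genes called were 20, 15, 52, 72 and 174 without those LLC libraries, and 84 to 114 without a PBS library. Members called were 71 by DESeq2, 10 with no filter on low counts, 7 with library totals only and 0 by limma on TPM. Genes called were 812, 139, 94 and, by limma on log2(TPM + 1), 27. Without LLC libraries 3 and 4 of day 21 together, 1 member and 5 genes were called, and the members' median was 0.28.

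In PBS fat, day 21 over day 7, 14 members were above 0 and 66 below, with a median of -0.08 against 0.01 over all genes tested. With library totals only, 3 were above 0 and 77 below, with a median of -0.20 against -0.12 over all genes. With limma on TPM, 1 was above 0 and 79 below, with a median of -0.30 against -0.17 over all genes. An unadjusted p under 0.05 was then found for 5 members and, on log2(TPM + 1), for 2582 of 13975 genes. Without PBS library 4 of day 21 the median was -0.19. None passed (edgeR), where 3.21% of all genes did, and DESeq2 called none either. No member had an unadjusted p under 0.05 in these 2 fits. Of all genes, 2850 of 13975 (edgeR) and 3194 of 21899 gene IDs (DESeq2) had one. The lowest were Rps27 (-0.31), Rpl14 (-0.29), Rps4x (-0.27), Rpl27a (-0.26) and Rpl32 (-0.25), and the highest Rps19 (0.29), Rps2 (0.17), Rplp2 (0.15), Rpl10a (0.11) and Rps27l (0.09), of which the last 4 were below 0 on the TPM scale, and Rpl10a and Rps27l also with library totals only. The comparisons within LLC fat and between LLC and PBS fat share the day 21 LLC libraries, so their values are set side by side and not counted as separate support.

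**Figure D4:**
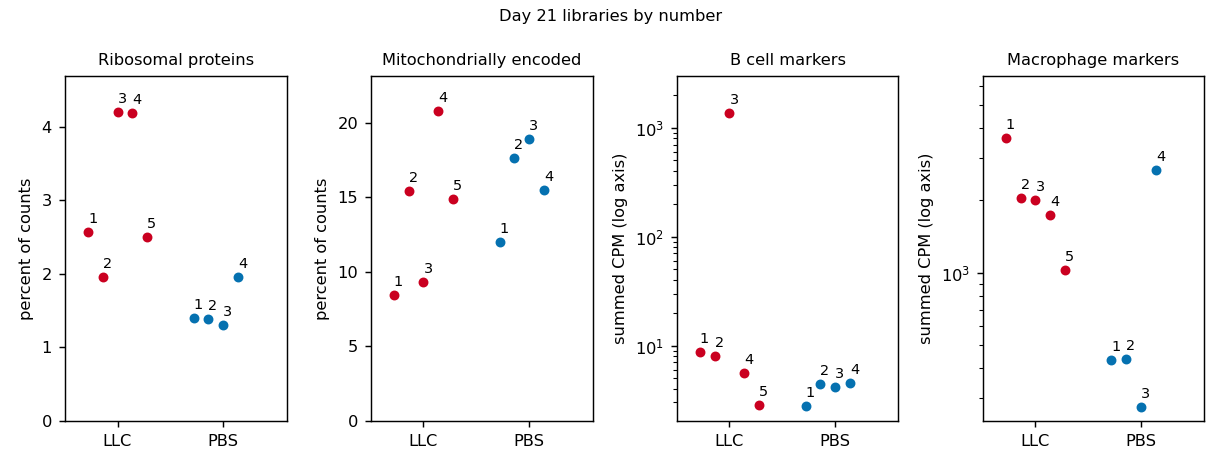
Each day 21 library by its number: percent of counts in the 80 ribosomal protein genes and in mitochondrially encoded genes, and summed CPM (log axis) of 8 B cell and 10 macrophage markers. LLC libraries 3 and 4, highest in ribosomal protein genes at 4.20 and 4.18%, differ in the other measures, with 1372 and 5.57 CPM of B cell markers and 9.34 and 20.8% of mitochondrial counts.

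Markers of other cells differed between the day 21 libraries too. B cell and macrophage markers did not follow the order of the ribosomal protein levels, as the plot of day 21 libraries by number shows. Endothelial markers (6 genes) did so in part. Their mean centred log2 level was highest in LLC library 4 (0.31), followed by library 3 (0.28) and library 5 (0.25). LLC library 1, at -0.17, fell below PBS library 4, at -0.14. Mast cell markers on this scale also peaked in LLC library 4 (1.52), then library 3 (1.26). Library 5 had their lowest LLC value (0.50). LLC library 3 was highest in B cell markers and also in T and NK cell markers, with 68.1 CPM of 8 genes against 6.21 to 18.3 CPM elsewhere. LLC library 4, with a similar share of ribosomal protein counts, held 5.57 CPM of B cell markers and 20.9 CPM of cell cycle genes, the lowest of the 18 libraries. Its summed adipocyte markers were the highest, at 57035 CPM, but the mean centred log2 level of the 8 genes was -0.04 there, against 0.39 to 0.52 in PBS libraries 1 to 3. LLC library 1, highest in macrophage and cell cycle markers at day 21, had a median ribosomal protein level of 0.13. Among PBS libraries, library 4 was highest in ribosomal protein genes and held 13468 CPM of 8 progenitor and fibroblast markers, against 2184 to 3519 CPM in PBS libraries 1 to 3. LLC libraries 3 to 5, with the highest median ribosomal protein levels, held 2642 to 2850 CPM of these markers, however, LLC library 1 held 12188 CPM, and day 7 libraries held up to 16715 CPM. The 6 mast cell markers summed to 71.6 to 139 CPM in LLC fat and 17.9 to 35.9 CPM in PBS fat at day 21, and 4 of them (Cma1, Cpa3, Mcpt4 and Tpsb2) passed. The part of cell makeup in the ribosomal protein values was not tested. LLC libraries 1 and 3 and PBS library 4 of day 21 were also left out together for their B cell, cell cycle, and progenitor and fibroblast markers. The members' median for LLC over PBS was then 1.05, with 0 called (edgeR), where 962 of 13392 genes tested were called. The smallest adjusted p of a member was 0.0519 (edgeR).

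The members differed little among themselves in how they followed the shared pattern. The SD, over the 18 libraries, of a gene's log2 CPM minus the members' median was lowest for Rpl30 (0.045), Rps23 (0.051), Rpl35 (0.054) and Rpl23a (0.055). It was highest for Rpl7l1 (0.441), Rps27l (0.351), Rps27 (0.250), Rplp2 (0.210) and Rps19 (0.208). Rpl30 had 164, 150, 274, 391 and 194 CPM in LLC libraries 1 to 5 of day 21, against 117, 114, 118 and 153 CPM in PBS libraries 1 to 4, which gives the shared pattern in a single gene. LLC library 2 was just below PBS library 4, and LLC libraries 3 and 4 were highest.

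Most members have short messages, with a median transcript length of 795.5 bases against 2766 bases for all genes tested at day 21, and 57 of the 80 are under 1000 bases. Other genes of that length were more often lower than higher in LLC fat at day 21. Of 845 tested, 354 were higher in LLC fat, with a median log2 fold change of -0.07. Of the 215 with a mean of at least 100 TPM, 76 were higher, with a median of -0.14. Longer genes, of 1000 bases or more and at least 100 TPM, were alike in this, with 308 of 900 higher and a median of -0.15. In the other direct comparisons short genes were more often higher: 519 of 822 in LLC over PBS fat at day 7 (median 0.04), 572 of 878 in LLC fat, day 21 over day 7 (median 0.10), and 632 of 878 in PBS fat, day 21 over day 7 (median 0.16). Of the longer genes of at least 100 TPM, 472 of 898 (median 0.01), 445 of 900 (median -0.01) and 608 of 900 (median 0.15) were higher in these comparisons. In the difference between days, 369 of 878 short genes and 314 of the 900 longer genes were higher. These length classes were added after the members' values were seen. Members with a pyrimidine run that begins near the start had a median day 21 log2 fold change of 0.90 (n = 21). It was 0.86 for members without such a run (n = 39), some of which hold a run that begins earlier.

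Among 8107 other genes with a mean of at least 10 TPM, those whose centred profile over the 18 libraries lay nearest to the members' median, by root mean square difference of log2 CPM, were Rpl10-ps3 (0.097), Rack1 (0.112), Eef1b2 (0.114), Fau (0.117) and Tpt1 (0.145). Rpl10-ps3 is a near-identical copy of Rpl10, Rack1 sits on the head of the small subunit, Eef1b2 recharges the elongation factor Eef1a1, Fau carries a ribosomal protein fused to a ubiquitin-like part, and Tpt1 has a TOP message. The members themselves had a median difference of 0.092, and 44 of the 80 were nearer than the nearest other gene. The members make up the median they are measured against and the other genes do not, so this count is no test.

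Other genes of translation were counted from lists of the pathway. All 20 other TOP messages, chiefly initiation and elongation factors, had a log2 fold change above 0 in LLC over PBS fat at day 21, with a median of 0.45. None passed (edgeR), and 13 had an unadjusted p under 0.05, where 3164 of all 13564 genes tested did. The smallest p were those of Hnrnpa1 (0.84), Npm1 (0.95), Rack1 (0.87) and Eif4b (0.46). Between day 21 and day 7 in LLC fat, all 20 were again above 0, with a median of 0.46, and 7 rose, among them the nucleolar chaperone Npm1 by 0.83 ± 0.162 and the initiation factors Eif4b by 0.60 ± 0.109 and Eif3h by 0.47 ± 0.101 (SE; edgeR adjusted p = 0.0239, 0.02 and 0.0333), where 1.77% of all genes tested passed. The number called was 14 by DESeq2, 3 with library totals only and 0 by limma on TPM, 0 to 15 with a single library left out (0 without LLC library 1 or 2 of day 7), and 0 without LLC libraries 3 and 4 of day 21, when the median was 0.27.

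Of 30 genes of ribosome biogenesis, which make and process ribosomal RNA, 26 were above 0 and 4 below in LLC over PBS fat at day 21, with a median of 0.28. Their mean centred log2 level was 0.55, -0.08, 0.20, 0.29 and 0.06 in LLC libraries 1 to 5 of day 21. It was -0.25, -0.22, -0.04 and -0.22 in PBS libraries 1 to 4. The highest was thus LLC library 1, not library 3 or 4 as for the ribosomal proteins, and LLC library 2 was below PBS library 3. None passed (edgeR) and 15 had an unadjusted p under 0.05, where 3164 of all 13564 genes tested did. The smallest p were those of the helicase Ddx21 (0.63), the box C/D particle proteins Nop56 (0.85) and Nop58 (1.00), and Nolc1 (0.60). In LLC fat, day 21 over day 7, 28 were above 0 with a median of 0.25. Only 1 of the 30 passed, where 1.77% of all genes tested did. This was Ncl, the nucleolar protein nucleolin, which rose by 0.52 ± 0.119 (SE, adjusted p = 0.0423, edgeR). Ncl did not pass with library totals only, by limma on TPM, with no filter on low counts, without LLC libraries 3 and 4 of day 21, or without LLC library 4 or PBS library 1 or 2 of day 21, and, of day 7, without any of LLC libraries 1 to 4 or any PBS library.

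Of 16 genes of mTORC1 and the control of TOP messages, 3 were above 0 and 13 below at day 21, with a median of -0.19, while with library totals only 8 were above 0 and 8 below, with a median of -0.01. None passed (edgeR), and 5 of the 16 had an unadjusted p under 0.05, where 3164 of all 13564 genes tested did. The lowest p were those of Rheb, the activator of mTORC1 (-0.39), Sesn2 and Deptor, which restrain it (-0.59 and -1.04), and Rptor, its scaffold (-0.30). In PBS fat, day 21 over day 7, only 1 of the 16, Rheb, passed, where 3.21% of all genes tested did. Rheb rose by 0.41 ± 0.090 (SE, adjusted p = 0.0263, edgeR). It did not pass with library totals only, by limma on TPM, without PBS library 2 or 3 of day 21 or without any PBS library of day 7. These are message levels and do not measure the activity of the kinase.

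The 78 mitochondrial ribosomal proteins, which build the separate ribosomes inside mitochondria, had a median of the opposite sign at day 21. In LLC over PBS fat, 8 were above 0 and 70 below, with a median of -0.20. With library totals only, 34 were above 0 and 44 below, with a median of -0.03 against 0.22 over all genes. Their mean centred log2 level was -0.29, -0.09, -0.19, 0.41 and 0.01 in LLC libraries 1 to 5 of day 21. It was 0.19, 0.25, 0.29 and -0.01 in PBS libraries 1 to 4. LLC library 4, with the highest median level of the cytosolic members, was thus above every PBS library in this list as well. None passed (edgeR), and 16 of the 78 had an unadjusted p under 0.05, where 3164 of all 13564 genes tested did. The smallest adjusted p was 0.0634 (edgeR), for Mrpl43 (-0.46 ± 0.088, SE). In LLC fat, day 21 over day 7, 48 were above 0 with a median of 0.03, or -0.05 by limma on TPM and -0.08 without LLC libraries 3 and 4 of day 21. In PBS fat, day 21 over day 7, 77 were above 0 with a median of 0.28, against 66 with a median of 0.15 with library totals only and 55 with a median of 0.06 by limma on TPM. Of the 78, only 1, Mrpl10, passed there, where 3.21% of all genes tested did. Mrpl10 rose by 0.50 ± 0.111 (SE, adjusted p = 0.0263, edgeR). It did not pass by limma on TPM, without PBS library 1, 2 or 3 of day 21 or without PBS library 1, 2 or 4 of day 7. At day 7 the medians of the 4 lists in LLC over PBS fat lay between -0.02 and 0.05. The share of counts from mitochondrially encoded genes was 8.45 to 20.8% in LLC fat and 12.0 to 18.9% in PBS fat at day 21, and the groups overlapped.

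**Figure D5:**
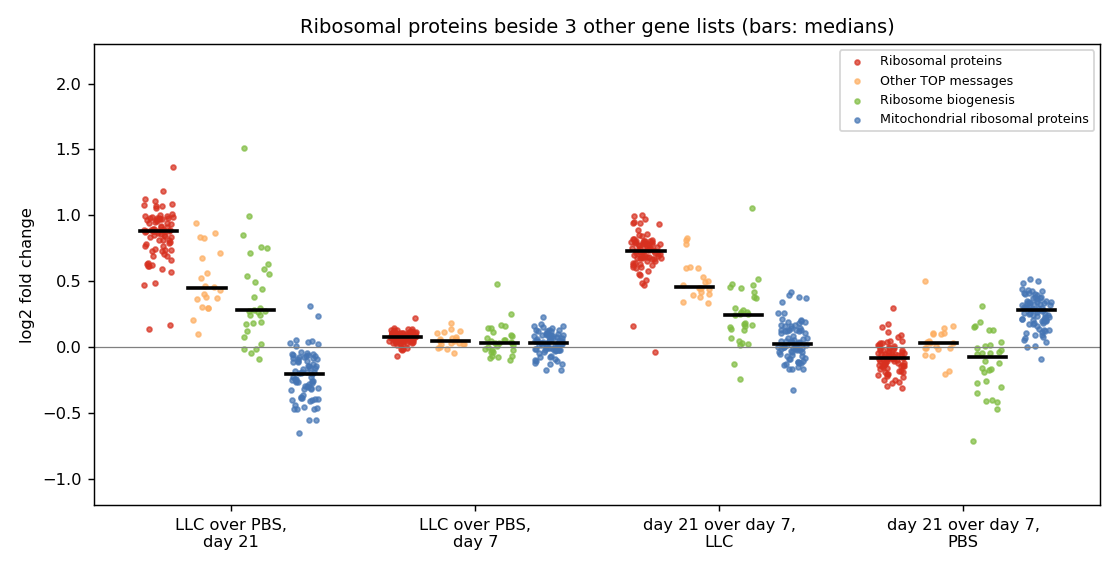
Log2 fold change of each gene of 4 lists (points) and the list medians (bars) in 4 comparisons. At day 21, LLC over PBS, the medians are 0.88 for the ribosomal proteins, 0.45 for other TOP messages, 0.28 for ribosome biogenesis and -0.20 for mitochondrial ribosomal proteins.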

How the data were processed

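Libraries of poly(A) RNA from inguinal fat were prepared with the NEBNext Ultra kit, per the labels' protocols, which name no step that marks strand, so reads of overlapping genes may be shared. Per the submitters' processing notes, the authors used fastp 0.23.0 and RSEM (version not given in the sources used here), with builds mm10 and GRCm38. The deposited expected counts of RSEM are whole numbers, rounded by the authors, and 176 values have a count of 0 beside a TPM above 0. The deposited TPM values were scaled by the authors for length and library total, and were used to choose members, to rank genes per length and in alternatives. The log2 ratios, p-values and false discovery rates in the authors' deposited table were only set beside the results.

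Counts were joined by gene ID and tested with edgeR 4.0.16 in R 4.3.3 (glmQLFit and glmQLFTest, TMM, filterByExpr), two-sided, with Benjamini-Hochberg adjustment over all genes tested and a threshold of 0.05. Comparisons of LLC with PBS used the 9 libraries of that day, because the days differ in spread. All others used 18 libraries with 4 group means and 1 spread per gene shared by the groups. Standard errors are the absolute log2 fold change over the root of F. Alternatives used DESeq2 1.42.0, limma 3.58.1 on log2(TPM + 1) and log2(TPM + 0.1), other scalings, no filter on low counts, a replicate block, and libraries left out. Paralog ratios were compared with two-sided exact permutation tests over libraries. The edgeR procedure was checked on simulated counts, with genes drawn independently and the same spread in every group. The check thus does not cover genes that vary together or groups that differ in spread. No 2 libraries of a group agreed within sampling noise (32 pairs). Total counts of 14566155 to 18969387 set the depth. Positions are those of GENCODE M21 (GRCm38) and matched all 80 members.

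Members and gene lists were chosen with earlier results of these data known. Genes were named by role, by the 5 highest and 5 lowest log2 fold changes of each comparison, by mean TPM, by spread around the members' median, by the smallest p in each list, and by nearness of profile. One gene that this rule names is not reported here. Same-numbered LLC and PBS libraries deviated together at day 7 (correlations of 0.143 to 0.582 over 4 pairs), which rests on the data, as no label says that a number marks a shared cage or day; at day 21 the correlations were -0.29 to 0.334. The block changed no call of a member at day 7.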

Additional observations from a re-analysis of the deposited data

Results flagged for a closer look

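Libraries that lay far from the others of their group were looked for in 84 groups of values; chance marks about 1 in 20 groups, and 8 were marked. In PBS fat of day 21, library 4 stood apart in 4 measures. Its share of counts in ribosomal protein genes was 1.95%, against 1.31 to 1.40% in the others, and its median centred level was 0.03, against -0.42 to -0.36. It had 190 CPM of Rpl14, against 136 to 145 CPM, and 174 CPM of Rpl32, against 119 to 121 CPM. In LLC fat of day 21, Rps27l had 58.3 CPM in library 4, against 27.1 to 33.6 CPM. In LLC fat of day 7, Rpl7l1 had 69.9 CPM in library 5, against 58.5 to 59.2 CPM. In PBS fat of day 7, library 2 had 391.6 CPM of Rps6, against 357 to 361 CPM, and a large minus small subunit level of -0.0045, against 0.026 to 0.031. The causes were not tested.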

How the results depend on the processing

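The direction of the members' median was the same in every alternative run for all 5 comparisons, and the cause of the differences below was not tested. For LLC against PBS at day 21, 63 members were called with DESeq2 and 76 with 1 fit of all libraries, against 0, and 0 to 12 with a library left out (median 0.64 to 1.03); without LLC libraries 3 and 4 the median was 0.44. For the difference between days, they were 15 with DESeq2, 11 without the libraries that stood apart in markers (LLC 1 and 3 and PBS 4 of day 21, LLC 3 and PBS 3 of day 7) and 0 to 29 with a library left out (median 0.57 to 0.96; 0.36 without LLC libraries 3 and 4). For day 21 against day 7 in LLC fat, they were 71 with DESeq2, 7 with library totals only, 0 with either limma fit on TPM, 10 with no filter on low counts, 53 without the libraries that stood apart, 1 without LLC libraries 3 and 4 (median 0.28), and 0 to 74 with a library left out (median 0.51 to 0.85). In PBS fat the median was -0.30 with either limma fit on TPM, where that of all genes was -0.20 and -0.17, and -0.19 to -0.03 with a library left out, with 0 called; at day 7 it was 0.04 to 0.11, with 0 called, and 0.02 without LLC library 3 and PBS library 3. In PBS fat it was -0.22 without the libraries that stood apart. With library totals only, the median of all genes moved to 0.22 at day 21, where the members' median was 1.06. The number of all genes called changed with the settings too. Without the libraries that stood apart, it was 962 for LLC against PBS at day 21 and 907 for the difference between days. For day 21 against day 7 in LLC fat it was 1033.

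The replicate block, which leaves out LLC library 5, gave 4 calls for day 21 against day 7 in LLC fat, where the same libraries without the block gave 2, and 0 calls in the other comparisons. The labels do not say that equal numbers share anything, and outside day 7 the numbers were not paired by their deviations.

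Single genes turned sign. With library totals only these were Rpl10a (-0.0043) and Rps27l (-0.026) in PBS fat, Rpl13 (0.011), Rpl21 (0.0014) and Rps4x (0.0058) at day 7, and Rpl7l1 in LLC fat (0.0052). With the block and without it on the same libraries these were Rpl13 (0.021 and 0.027), Rpl21 (0.019 and 0.020) and Rps4x (0.034 and 0.034) at day 7, and Rpl7l1 in LLC fat (0.073 and 0.076). With limma on log2(TPM + 1) and log2(TPM + 0.1) these were, in PBS fat, Rpl10a (-0.106 and -0.106), Rplp2 (-0.072 and -0.072), Rps2 (-0.042 and -0.042) and Rps27l (-0.111 and -0.112). Without the libraries that stood apart these were Rpl10a in PBS fat (-0.0091) and Rpl7l1 in the difference between days (-0.020). Without LLC libraries 3 and 4 these were Rps19 (-0.073) and Rps27l (-0.145) in the difference between days, and Rps27l against PBS (-0.015) and against day 7 (-0.052). With a library left out, values at day 7 spanned -0.115 to 0.024 for Rpl10, -0.075 to 0.033 for Rpl13, -0.058 to 0.020 for Rpl21, -0.055 to 0.015 for Rpl29 and -0.044 to 0.034 for Rps4x. They spanned -0.013 to 0.185 for Rpl10a in PBS fat, -0.123 to 0.022 for Rpl7l1 in LLC fat and -0.022 to 0.142 for Rpl7l1 in the difference between days. For Rps27l they spanned -0.077 to 0.282 at day 21, -0.091 to 0.241 in LLC fat and -0.184 to 0.149 in the difference between days.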
